A study of Mus musculus with 8 samples.

Results

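The subject is a set of 9 genes known as markers of adventitial, or universal, fibroblasts: Dpt, Clec3b, Pi16, Mfap5, Pdgfra, Cd34, Gsn, Fbln1 and Fap. They were chosen by symbol, with the group differences of Dpt, Clec3b and Fbln1 in these tumors already known, so their differences between groups are given as a description and not as a test. All 9 were among the 28918 genes of the table, and all 9 passed the filter on low values, a mean of at least 1 TPM (the deposited level, corrected for gene length and library total), which left 13726 tested genes. The tumors were subcutaneous implants of the mouse melanoma line B16mhgp100 in C57BL/6 mice. The line over-expressed either Colq, the collagen-like tail of acetylcholinesterase, or the vector alone. All mice were given anti-PD1, which blocks an inhibitory receptor on T cells, as 4 doses of 200 µg, 2 a week, from day 10 after inoculation. Harvest followed 1 day after the final injection. No group without the antibody was among the samples, and the age of the mice is not among the labels. Each of the 3 Colq tumors was sequenced once, and the 3 vector tumors are held in 5 libraries, because vector tumors 1 and 2 were each sequenced as 2 portions.

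Adventitial fibroblasts lie in the outer coat of vessels and in the loose connective tissue that wraps muscle, skin and other organs. They are known for a secreted and surface program that includes Dpt, Pi16 and Cd34, and they are regarded as a reserve population from which more specialised fibroblasts arise. Pdgfra, the alpha receptor of platelet-derived growth factor, marks fibroblasts widely, and Fap, a surface prolyl peptidase, is a marker of activated fibroblasts in tumors. In bulk tissue, fewer cells of a type and less RNA per cell cannot be told apart, and several of these genes are also used by other cells.

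Colq itself read 4.05, 5.03 and 3.86 TPM in the libraries labelled for it and 0 to 0.24 TPM in the vector libraries, the order that the labels give. The 3 Colq libraries lay close together: the median absolute difference of log2(TPM + 1) over tested genes was 0.106 to 0.111 between any pair of them, and 0.144 and 0.219 between the 2 portions of a single vector tumor. Libraries of different vector tumors differed by 0.148 to 0.225, much as the portions did, so this distance cannot tell portions from separate tumors. The labels call the Colq libraries 3 tumors, but they varied less than any 2 vector libraries did. Nothing else in the labels says how they were sampled. Named calls and most list counts below are therefore also given with these libraries averaged and counted as 1 sample, where they change. That fit called fewer of all tested genes, so its counts cannot be set beside the shares given for the main fit. Nothing in the labels says whether each tumor came from its own mouse, so p-values measure the spread between these tumors. Each library held between 19887 and 21602 genes above 0; TPM keeps no depth. Melanocyte genes, which mark the implanted line, were present in every library, with Pmel averaging 3172 ± 120 TPM in Colq tumors against 6612 ± 342 (SD, n = 3 each).

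Of the 9 genes, 6 were called higher in Colq tumors, where 11.3% of all tested genes were, and 1 was called lower, where 59.6% were (limma, adjusted p under 0.05), against 70.9% called in either direction. By tumor, 7 of the 9 did not overlap between groups, 6 higher and 1 lower, where 74.7% of all tested genes did not overlap, 12.2% higher and 62.4% lower. Because the genes were chosen with this contrast known, nothing is read from that count. The median log2 fold change, Colq minus vector on the log2(TPM + 1) scale, was 0.77 over the 9 genes and -0.50 over all tested genes. Dpt, Clec3b and Pi16 stood far above the rest. Mfap5, Cd34 and Gsn followed in falling steps, Pdgfra and Fap overlapped between groups, and Fbln1 was lower. With the Colq libraries as 1 sample, 3 were called higher (Dpt, Clec3b and Pi16) and 1 lower.

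**Figure D1:**
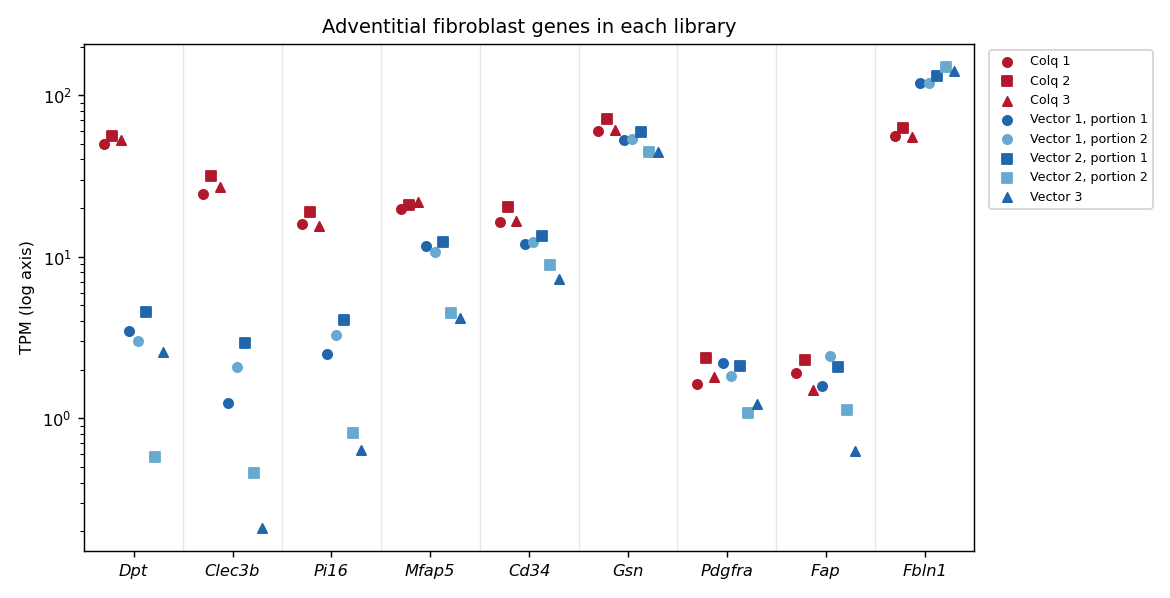
TPM of the 9 genes (log axis) in each of the 8 libraries; red, Colq; blue, vector; the second portions of vector tumors 1 and 2 are light blue. The Colq libraries of Dpt sit between 49.9 and 55.9 TPM and the vector libraries between 0.58 and 4.58, while those of Pdgfra and Fap overlap and those of Fbln1 are in the opposite order.

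Dpt (ENSMUSG00000026574) encodes dermatopontin, a small matrix protein that binds decorin and collagen and helps fibrils assemble. It lies on chromosome 1, 164796644 to 164824266 on the plus strand, in the GRCm38 annotation, which is not the mm39 build of the authors' values. The Colq libraries held 49.9, 55.9 and 52.5 TPM. Vector tumor 1 held 3.49 and 3.02 TPM, vector tumor 2 held 4.58 and 0.58, and vector tumor 3 held 2.58. Every Colq library stood far above every vector library. Means were 52.8 ± 3.00 TPM for Colq and 2.81 ± 0.39 TPM for vector (SD, n = 3 each), a ratio of 18.8 and a log2 fold change of 3.92 (SE 0.14). The small SD of the vector tumors hides the gap between the portions of tumor 2.

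The stretch before the start of Dpt is shown because Dpt had, with Clec3b, the largest differences of the 9, and that of Fbln1 because Fbln1 moved the other way. Each run is the 250 bases before the start site given by RefSeq on GRCm38.p6, plus strand, 5′ to 3′, at chr1:164796413-164796662 for Dpt and at chr15:85205699-85205948 for Fbln1. Capitals mark bases that GENCODE places in an annotated exon, of which Dpt has 19 and Fbln1 has 0.
Dpt: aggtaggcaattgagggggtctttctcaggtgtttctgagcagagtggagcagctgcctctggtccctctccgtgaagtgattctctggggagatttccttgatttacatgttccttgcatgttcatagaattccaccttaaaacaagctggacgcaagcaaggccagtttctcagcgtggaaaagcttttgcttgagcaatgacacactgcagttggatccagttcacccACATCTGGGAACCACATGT
Fbln1: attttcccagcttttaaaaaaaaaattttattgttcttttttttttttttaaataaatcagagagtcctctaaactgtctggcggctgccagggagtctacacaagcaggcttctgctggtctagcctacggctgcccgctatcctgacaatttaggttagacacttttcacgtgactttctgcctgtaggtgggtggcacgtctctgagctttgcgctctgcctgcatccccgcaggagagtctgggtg
Promoters were matched for 6 of the 9 genes, as 9 windows of 250 bases because Gsn and Fbln1 have several starts. None was available for Clec3b, Mfap5 or Fap. The Pi16 window lay in annotated exons over all 250 bases, and the other Fbln1 window over 59. For some windows of Gsn and for that of Pdgfra, the start was not found in the annotated transcripts. Each window was searched on both strands for 3 short motifs, and none of the 9 windows held a match. The first was the AP-1 motif, TGANTCA, which 6.75% of the 32851 RefSeq promoters of the same length hold. The second was the motif of the TEAD factors of the Hippo pathway, GGAATG, which 12.6% of them hold. The last was the core promoter element known as the TATA box, searched as TATAAA, which 12.4% of them hold. The absence of a match says only that these letters are not in these windows.

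Clec3b (ENSMUSG00000025784; chromosome 9, 123150946 to 123157432, plus strand, GRCm38) encodes tetranectin, a secreted lectin-like protein that binds a kringle domain of plasminogen. Its Colq libraries held 24.4, 31.4 and 27.1 TPM. The 2 pieces of vector tumor 1 read 1.24 and 2.09 TPM, vector tumor 2 held 2.93 and 0.46, and vector tumor 3 held 0.21. The groups did not overlap, and the second portion of tumor 2 and tumor 3 were the lowest. Means were 27.6 ± 3.55 against 1.19 ± 0.85 TPM (SD, n = 3 each), a ratio of 23.2, the largest of the 9, with a log2 fold change of 3.86 (SE 0.29). In vector tumors Clec3b was the lowest of the 9 genes by mean, and in Colq tumors it was the fourth highest.

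Pi16 (ENSMUSG00000024011; chromosome 17, 29317680 to 29330593, plus strand, GRCm38) encodes peptidase inhibitor 16, a surface protein that defines the reserve fibroblast state. The Colq libraries held 15.9, 18.9 and 15.5 TPM. In vector tumor 1 the portions held 2.51 and 3.27 TPM, vector tumor 2 held 4.06 and 0.81, and vector tumor 3 held 0.64. No vector library reached the Colq range, and the second portion of tumor 2 and tumor 3 were the lowest, as for Clec3b. Means were 16.8 ± 1.87 against 1.99 ± 1.19 TPM (SD, n = 3 each), a ratio of 8.44 and a log2 fold change of 2.73 (SE 0.30). A clone-named antisense gene model shares 222 exonic bases with Pi16 in the annotation, and other models overlap Pdgfra and Cd34, so their reads could not be told apart.

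Mfap5 (ENSMUSG00000030116; chromosome 6, 122505845 to 122529290, plus strand, GRCm38) encodes a glycoprotein of microfibrils, the fibrillin scaffold of elastic fibers. Its Colq libraries held 19.7, 21.0 and 21.9 TPM. The portions of vector tumor 1 gave 11.7 and 10.7 TPM, vector tumor 2 held 12.4 and 4.46, and vector tumor 3 held 4.18. The groups stood apart, but the highest vector library came closer to the Colq range than for Dpt, Clec3b or Pi16. Means were 20.9 ± 1.11 against 7.94 ± 3.54 TPM (SD, n = 3 each), a ratio of 2.63 and a log2 fold change of 1.42 (SE 0.28). With the Colq libraries as 1 sample Mfap5 was not called.

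Cd34 (ENSMUSG00000016494; chromosome 1, 194938819 to 194961279, plus strand, GRCm38) encodes a sialomucin found on adventitial fibroblasts, on vessel endothelium and on blood progenitors. Its Colq libraries held 16.3, 20.4 and 16.7 TPM. The 2 pieces of vector tumor 1 read 11.9 and 12.3 TPM, vector tumor 2 held 13.5 and 8.95, and vector tumor 3 held 7.32. The groups did not overlap, with a log2 fold change of 0.77 (SE 0.18), which was not called with the Colq libraries as 1 sample. Endothelial genes went the other way in the same tumors. Of 15 tested, 14 fell by limma, where 59.6% of all tested genes did, and their median log2 fold change was -1.19. The count was 12 after size factors, a rescaling that brings the median of all genes near 0, where 26.8% of all tested genes fell. With the Colq libraries as 1 sample the median was again -1.19. Cdh5, the endothelial cadherin, was at 2.26 ± 0.30 against 13.3 ± 3.00 TPM (limma, adjusted p = 4.7e-05), Kdr, a receptor of vascular endothelial growth factor, at 1.39 ± 0.012 against 6.46 ± 0.34, and Pecam1 at 6.76 ± 0.77 against 16.6 ± 2.83 (SD, n = 3 each). Flt1 and Eng fell too, by 2.07 and by 1.39 on the log2 scale. Tek, an angiopoietin receptor, was under the filter, at 0.88 ± 0.19 against 0.55 ± 0.26 TPM.

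Gsn (ENSMUSG00000026879; chromosome 2, 35256380 to 35307892, plus strand, GRCm38) encodes gelsolin, which severs and caps actin filaments and is made by many cell types. Its Colq libraries held 60.1, 70.9 and 61.2 TPM, and its vector libraries between 44.2 and 59.3 TPM with a median of 53.0. The highest vector library, the first portion of tumor 2, lay just under the lowest Colq library. The log2 fold change was 0.36 (SE 0.10), and Gsn was not called with the Colq libraries as 1 sample or with first portions only. Of 7 other tested actin-severing genes 1 rose and 5 fell, with a median of -0.61, where the median of all tested genes was -0.50 and 59.6% were lower. Over all tested genes, 27.3% were higher and 26.8% lower after size factors. The rise was lost with the Colq libraries as 1 sample and without each tumor in turn other than vector tumor 2, and after size factors 2 rose and 2 fell. Svil fell by 1.36, Vil1 by 1.44, and Flii and Cfl1 by 0.71 and 0.61, the last pair not called after size factors.

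Pdgfra (ENSMUSG00000029231; chromosome 5, 75152292 to 75198215, plus strand, GRCm38) had 1.62, 2.37 and 1.81 TPM in the Colq libraries. In vector tumor 1 the portions held 2.21 and 1.84 TPM, vector tumor 2 held 2.11 and 1.08, and vector tumor 3 held 1.22. The groups overlapped, at 1.93 ± 0.39 against 1.61 ± 0.40 TPM (SD, n = 3 each), and the log2 fold change was 0.18 (SE 0.18). Pdgfra had the longest transcript of the 9 genes, 6834 bases, and its value moved by more than that of the other 8 when the trend of fold change on transcript length and GC content was removed. On that scale the log2 fold change of Pdgfra was 1.08, after size factors it was 0.53 (SE 0.18; limma, adjusted p = 0.042), and on each of these it was called higher. With quantile normalization it was 0.32 and not called (limma, adjusted p = 0.17). Among its ligands Pdgfc rose (2.44 ± 0.22 against 0.838 ± 0.22 TPM; limma, adjusted p = 0.0016), while Pdgfa fell by 0.49 and Pdgfb by 0.74 on the log2 scale, calls lost after size factors, where Pdgfa stood at 0.02, and with the Colq libraries as 1 sample. The call of Pdgfa was also lost when Colq tumor 1 or 3 or vector tumor 1 or 2 was left out. The beta receptor Pdgfrb, a marker of mural cells and fibroblasts, was at 2.43 ± 0.18 against 5.79 ± 1.13 TPM (SD, n = 3 each; limma, adjusted p = 0.00078). It was not called after the length correction and is named here after its value was seen. Family counts stand beside 11.3% of all tested genes higher and 59.6% lower as deposited, and 27.3% and 26.8% after size factors. Of 5 tested PDGF genes other than Pdgfra, 1 rose and 3 fell, and after size factors, or on counting the Colq libraries as 1 sample, the count was 1 in each direction.

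Fap (ENSMUSG00000000392; chromosome 2, 62500943 to 62574075, minus strand, GRCm38) had 1.91, 2.29 and 1.49 TPM in the Colq libraries. The portions of vector tumor 1 gave 1.58 and 2.44 TPM, vector tumor 2 held 2.09 and 1.12, and vector tumor 3 held 0.63. The groups overlapped, with a log2 fold change of 0.31 (SE 0.25), and limma did not call Fap on any scale or in any subset of tumors that was run. The authors' deposited table gives it an adjusted p of 0.049. Its closest relative Dpp4, a surface dipeptidyl peptidase that also marks reserve fibroblasts, rose from 0.465 ± 0.074 to 2.13 ± 0.11 TPM (SD, n = 3 each; limma, adjusted p = 0.00049). The cytosolic peptidases of the same family were lower, with Dpp9 at -1.14, Prep at -1.21, Prepl at -0.93 and Dpp8 at -0.86. So of 5 tested 1 rose and 4 fell, also after size factors. Shares over all tested genes were 11.3% higher and 59.6% lower as deposited, and 27.3% and 26.8% after size factors. The calls of Prep and Dpp8 were lost with the length trend removed.

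Fbln1 (ENSMUSG00000006369; chromosome 15, 85205949 to 85286535, plus strand, GRCm38) encodes fibulin 1, a glycoprotein of basement membranes and elastic fibers. The Colq libraries held 56.0, 62.4 and 55.0 TPM, and the vector libraries between 118.1 and 149.3 TPM with a median of 132.0. Every vector library was above every Colq library. Means were 57.8 ± 3.99 against 133.2 ± 13.0 TPM (SD, n = 3 each), and the log2 fold change was -1.19 (SE 0.09). It shrank to -0.64 after size factors and to -0.56 with the length trend removed, and was called lower on each scale. The lowest value of Fbln1 in vector tumors was in tumor 1, where Dpt, Pi16, Mfap5, Cd34 and Gsn were highest by tumor.

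**Figure D2:**
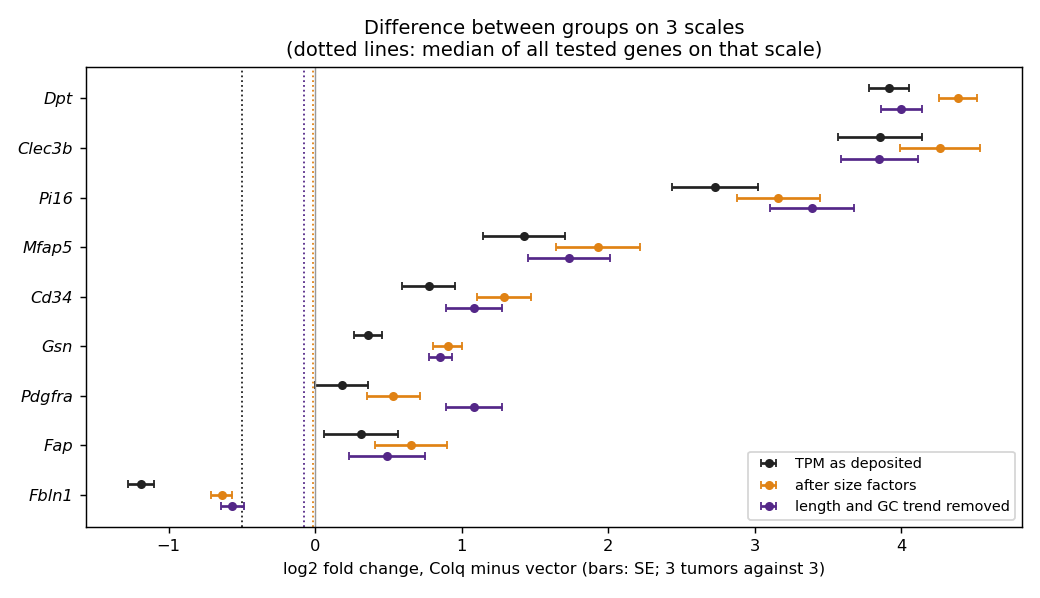
Log2 fold change of the 9 genes, Colq minus vector, with SE (3 tumors against 3), from TPM as deposited, after size factors and with the length and GC trend removed; dotted lines mark the median of all tested genes on each scale, -0.50, -0.01 and -0.07. Dpt, Clec3b and Pi16 lie at 2.73 or above on every scale, Fbln1 is below 0 on every scale, and Pdgfra moves from 0.18 to 1.08.

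Among the 9 genes, Pdgfra alone changed its call between TPM as deposited, size factors and the length correction, while the sizes moved for others too: Pi16 went from 2.73 to 3.39 with the length trend removed. After size factors 7 of the 9 were higher, where 27.3% of all tested genes were, and 1 lower, where 26.8% were (54.0% in either direction). With the length trend removed the counts were again 7 and 1, where 18.7% of tested genes were higher and 27.1% lower (45.7% in either direction). The authors' deposited table gave log2 fold changes of 4.79 for Dpt, 5.15 for Clec3b, 3.59 for Pi16, 1.96 for Mfap5, 1.35 for Cd34, 1.02 for Fap, 0.91 for Gsn, 0.79 for Pdgfra (adjusted p = 0.0054 there) and -0.65 for Fbln1. The median of all genes in the authors' deposited table was 0.07.

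The order of the 9 genes by level differed between the groups. In Colq tumors Gsn (64.0 ± 5.93 TPM), Fbln1 (57.8 ± 3.99) and Dpt (52.8 ± 3.00) led, with ranges over tumors that overlapped between neighbours (SD, n = 3 each), although the order held within 3 of 3 tumors. Clec3b, at 27.6 TPM, stood apart from Dpt above and from Mfap5 below, Mfap5, Cd34 and Pi16 overlapped in range from 1 to the next but kept that order within 3 of 3 tumors, and Pdgfra and Fap lay together near the filter at 1.93 and 1.90 TPM. In vector tumors Fbln1 stood apart at the top, Gsn was second at 49.9 ± 4.78 TPM, and Cd34 and Mfap5 followed at 10.2 and 7.94 TPM. Dpt, Pi16, Pdgfra, Fap and Clec3b filled the bottom, from 2.81 down to 1.19 TPM, each overlapping its neighbour.

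Levels per unit of Pdgfra restate these differences on a within-library scale. Pdgfra itself differed little as deposited (log2 fold change 0.18, SE 0.18), so the ratios are no separate evidence. Its libraries held 1.08 to 2.37 TPM, near the filter. Dpt stood at 23.6 to 30.8 times the TPM of Pdgfra in the Colq libraries and at 0.54 to 2.17 times in the vector libraries. Clec3b stood at 13.3 to 15.1 times against 0.17 to 1.39 times, and Pi16 at 7.99 to 9.83 times against 0.52 to 1.92 times. For Mfap5 the ratio was 8.87 to 12.2 against 3.43 to 5.89, and for Cd34 8.59 to 10.1 against 5.39 to 8.29. The ratios of these 5 genes did not overlap between the groups. On TPM, 74.7% of all tested genes did not overlap by tumor. The share for ratios to Pdgfra was not computed, so nothing is read from this count. Gsn per Pdgfra overlapped, at 29.9 to 37.1 against 24.0 to 40.9, as did Fap, at 0.82 to 1.18 against 0.52 to 1.33. Fbln1 per Pdgfra was 26.3 to 34.6 in Colq and 53.5 to 138.2 in vector libraries, which did not overlap either. A within-library ratio shows unequal levels, and these were not corrected for transcript length trends. With the length trend removed, the log2 fold changes of Cd34 and Pdgfra were both 1.08.

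For Mfap5 the portions of vector tumor 2 differed by a larger ratio, 2.78, than the group means did, 2.63. The same held for Gsn (1.34 against 1.28), Pdgfra (1.95 against 1.20) and Fap (1.87 against 1.34). For Dpt, Clec3b, Pi16, Cd34 and Fbln1 the gap between group means was the larger. In vector tumor 2 the first portion held more than the second for 8 of the 9 genes. The ratio was 7.90 for Dpt, 6.37 for Clec3b, 5.01 for Pi16, 2.78 for Mfap5, 1.95 for Pdgfra, 1.87 for Fap, 1.51 for Cd34 and 1.34 for Gsn, and it was 0.88 for Fbln1. The 4 genes with the largest difference between groups were also the 4 with the largest difference between these portions, and Fbln1 was again the exception. On the log2(TPM + 1) scale the difference of Dpt was 1.82, where the median absolute difference of all tested genes between the portions was 0.22 and 1.03% of tested genes differed by as much as Dpt. In vector tumor 1 the portions were close: 4 of 9 genes were higher in the first, and the widest gap was that of Clec3b, with a log2 difference of -0.46. Even the richer portion of tumor 2, at 4.58 TPM of Dpt, stood far below the lowest Colq library, at 49.9 TPM. With 2 tumors sampled in portions, no test was made.

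**Figure D3:**
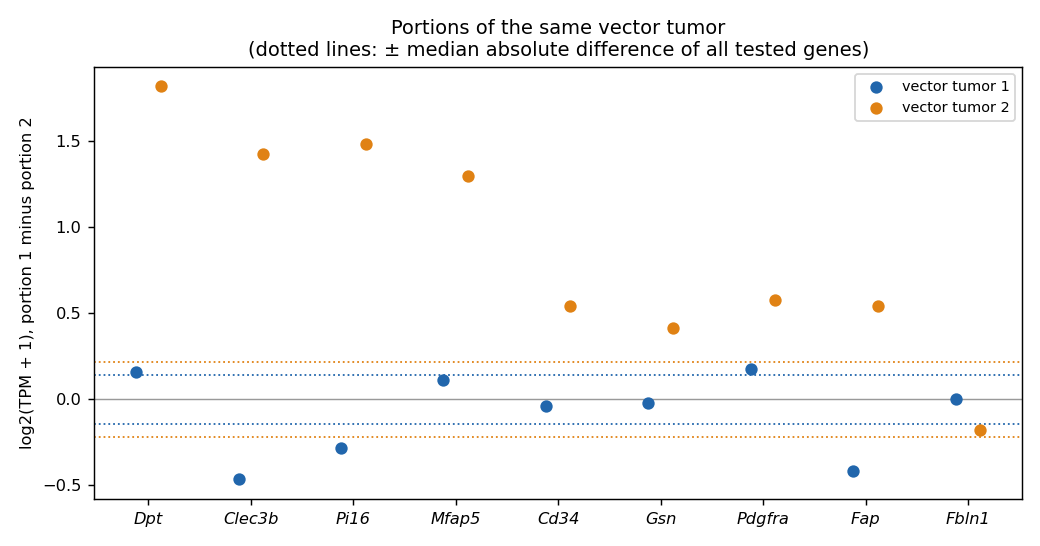
Difference of log2(TPM + 1) between portion 1 and portion 2 of vector tumor 1 (blue) and of vector tumor 2 (orange) for the 9 genes; dotted lines are plus and minus the median absolute difference of all tested genes, 0.14 and 0.22. Dpt, Clec3b, Pi16 and Mfap5 differ by 1.30 to 1.82 in tumor 2 and by at most 0.46 in size in tumor 1.

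A wider list of genes used for universal and adventitial fibroblasts was then read in the same fit. Among 33 tested, 17 rose and 6 fell (22 and 4 after size factors), and the median was 0.52 on the log2 scale, against -0.50 for all tested genes. Shares over all tested genes were 11.3% higher and 59.6% lower as deposited, and 27.3% and 26.8% after size factors. Counting the Colq libraries as 1 sample left 9 that rose and 3 that fell. Igfbp6, a binding protein of insulin-like growth factors, was at 15.0 ± 1.29 against 1.23 ± 0.39 TPM (SD, n = 3 each; limma, adjusted p = 1.5e-05). Efemp1, a fibulin known as fibulin 3, was at 8.16 ± 1.31 against 0.822 ± 0.33 TPM, Cd55, a complement regulator, at 6.96 ± 0.75 against 0.95 ± 0.23, and Htra3, a secreted serine protease, at 12.5 ± 1.13 against 4.41 ± 0.33 (SD, n = 3 each). Of the surface markers, Ly6c1 rose by a log2 fold change of 1.60, Scara5 by 1.53 and Ly6a by 1.11, the last not called with the Colq libraries as 1 sample. The collagens Col14a1 and Col15a1 went otherwise: Col14a1 stood at 3.47 ± 0.63 against 3.63 ± 0.79 TPM and was called higher only with the length trend removed, at 0.85, and Col15a1, a basement membrane zone collagen, fell by 1.08. The defining markers Dpt, Pi16, Clec3b, Mfap5, Cd34 and Pdgfra were above 0 in every library, and the list did not move as a single group.

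General fibroblast matrix genes split. Of 23 tested, 8 rose and 13 fell, with a median of -0.65, where 11.3% of all tested genes were higher and 59.6% lower. Those shares were 27.3% and 26.8% after size factors, and 18.7% and 27.1% after the length correction. Counting the Colq libraries as 1 sample left 3 higher and 8 lower, after size factors 9 rose and 7 fell, and after the length correction 10 rose and 3 fell, with a median of 0.24. Dcn, the proteoglycan decorin to which dermatopontin binds, was at 80.4 ± 3.55 against 16.6 ± 5.13 TPM (SD, n = 3 each; limma, adjusted p = 4.6e-05), and Lum, the related lumican, at 9.32 ± 0.22 against 2.20 ± 0.49. Aebp1, a collagen-binding protein, was at 154.4 ± 6.58 against 388.4 ± 15.6 TPM, and Col6a3 fell by 1.18 and was not called after the length correction. Dcn and Lum shared the low value of the second portion of vector tumor 2, at 7.65 TPM against 29.6 in the first portion for Dcn and at 1.13 against 3.48 for Lum. The summed TPM of the list was 1514 to 1593 in Colq tumors and 2080 to 2944 in vector tumors (exact two-sided permutation test on log2 sums, p = 0.1, the smallest that 3 against 3 allows). That p means only that the sums did not overlap, as 74.7% of all tested genes did not by tumor.

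Of 21 tested genes of contractile and tumor-activated fibroblasts 2 rose and 13 fell (61.9%, where 59.6% of all tested genes were lower), and their median was -0.81. Over all tested genes, 27.3% were higher and 26.8% lower after size factors. After size factors 4 rose and 10 fell, and counting the Colq libraries as 1 sample left 2 higher and 10 lower. Acta2, the smooth muscle actin of myofibroblasts, was at 7.06 ± 0.28 against 20.2 ± 4.12 TPM, Postn, periostin, at 15.9 ± 0.38 against 38.0 ± 10.0, and Ccn2, connective tissue growth factor, at 4.83 ± 0.12 against 23.2 ± 3.01 (SD, n = 3 each); Acta2 and Postn are named after their values were seen. Actn1, an actin crosslinker, fell by 1.49. The 2 genes that rose were Cthrc1, a secreted collagen triple helix protein, by 2.28 (limma, adjusted p = 1.0e-05), and Tpm2, a tropomyosin of striated and smooth muscle, by 2.05.

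The partners of Mfap5 and Fbln1 in microfibrils and elastic fibers fell for 12 of 19 tested genes by limma (63.2%, where 59.6% of all tested genes were lower) and rose for 0, with a median of -0.69. At an unadjusted p under 0.05, 13 fell and 0 rose, a cut for which the share over all tested genes was not computed. With the Colq libraries as 1 sample the median was again -0.69. Fbln5, which joins elastin to microfibrils, was at 60.8 ± 1.93 against 181.7 ± 12.4 TPM (SD, n = 3 each; limma, adjusted p = 9.7e-06), Nid2 fell by 1.75, Ltbp3, a binder of latent TGF beta, by 1.08 and Mfap3 by 0.93. Fbn1 and Eln are named after their values were seen. Fbn1, the fibrillin scaffold itself, fell by 0.69, was not called after size factors and was called higher, at 0.39, with the length trend removed. Eln, elastin, stood at 2.68 ± 0.46 against 2.86 ± 1.26 TPM and was not called. On the size factor scale 2 of the list rose and 7 fell, with a median of -0.23, where 27.3% of all tested genes were higher and 26.8% lower. The length correction left 1 higher and 6 lower, with a median of 0.09, where the shares were 18.7% and 27.1%.

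Around tetranectin, the plasminogen system gave 1 rise and 3 falls among 7 tested genes, and 4 rises after size factors. Shares over all tested genes were 11.3% higher and 59.6% lower as deposited, and 27.3% higher after size factors. S100a10, which with annexin A2 forms a plasminogen receptor, was at 536.0 ± 13.9 against 240.5 ± 42.1 TPM (SD, n = 3 each), and Anxa2 fell by 0.36, a value that was 0.19 and not called after size factors. Plat, the tissue activator, fell by 0.57, a call lost after size factors. Plgrkt, a plasminogen receptor, fell by 0.25 on TPM as deposited and was called higher after size factors, at 0.30. Plau, the urokinase activator, stood at 28.7 ± 1.46 against 27.6 ± 7.96 TPM and was not called as deposited; it is named after its value was seen. With the Colq libraries as 1 sample Anxa2, Plat and Plgrkt were not called. Plg itself, the liver-made plasminogen to which tetranectin binds, was listed at 0 in all 8 libraries.

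Among genes of other tissues, those of skeletal muscle rose in Colq tumors, as Dpt, Clec3b and Pi16 did. Adipocyte, keratinocyte and immune genes rose in part, and melanocyte sums were lower. The counts below stand beside 11.3% of all tested genes higher and 59.6% lower as deposited, and 27.3% and 26.8% after size factors. Of 19 tested skeletal muscle genes 17 rose (18 after size factors, 16 with the Colq libraries as 1 sample), with a median of 3.04, and the summed TPM of the list was 1106 to 1127 in Colq tumors and 79.1 to 149.7 in vector tumors. The summed muscle level in vector tumor 2 was 236.0 TPM in the first portion and 63.0 in the second. Dpt, Clec3b and Pi16 had the same order there. In vector tumor 1 the muscle sum was 92.9 and 206.6. Clec3b (1.24 and 2.09 TPM) and Pi16 (2.51 and 3.27) had that order too, and Dpt (3.49 and 3.02) had the reverse. The gap of Dpt between those portions was matched or exceeded by 46.1% of tested genes. That share was not computed for Clec3b or Pi16, so nothing is read from these orders. Of 8 tested adipocyte genes 2 rose and 1 fell (5 rose after size factors), with sums of 173.8 to 175.1 TPM in Colq and 106.9 to 149.8 TPM in vector tumors; Adipoq, adiponectin, was at 2.67 ± 0.29 against 1.16 ± 0.60 TPM, a call lost without Colq tumor 2 or 3 and with the Colq libraries as 1 sample, and Car3, also a muscle gene, rose by 2.98. Of 12 tested keratinocyte genes 8 rose and 1 fell, with a median of 1.38; 5 rose without Colq tumor 1, without Colq tumor 2 or without vector tumor 2, and 2 rose with the Colq libraries as 1 sample. Their sums were 91.0 to 107.9 against 15.0 to 184.4 TPM, which overlapped (exact permutation p = 0.4). The first portion of vector tumor 1 held the most of all libraries, 336.8 TPM. Of 13 tested immune genes 4 rose and 1 fell (3 rose with the Colq libraries as 1 sample), with sums of 1023 to 1033 TPM in Colq and 280.2 to 419.8 TPM in vector tumors, and melanocyte genes had sums of 11759 to 12088 TPM and 19342 to 23631 TPM. Exact permutation tests over the 6 tumors gave p = 0.1, the smallest possible, for the muscle, adipocyte, immune and melanoma sums. That value means only that the sums did not overlap between groups, as 74.7% of all tested genes did not. The lists were also chosen with earlier results of these data known, so no support is drawn from it. No defining marker of these lists was at 0 in all libraries, and their part in the differences of the 9 genes was not tested.

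**Figure D4:**
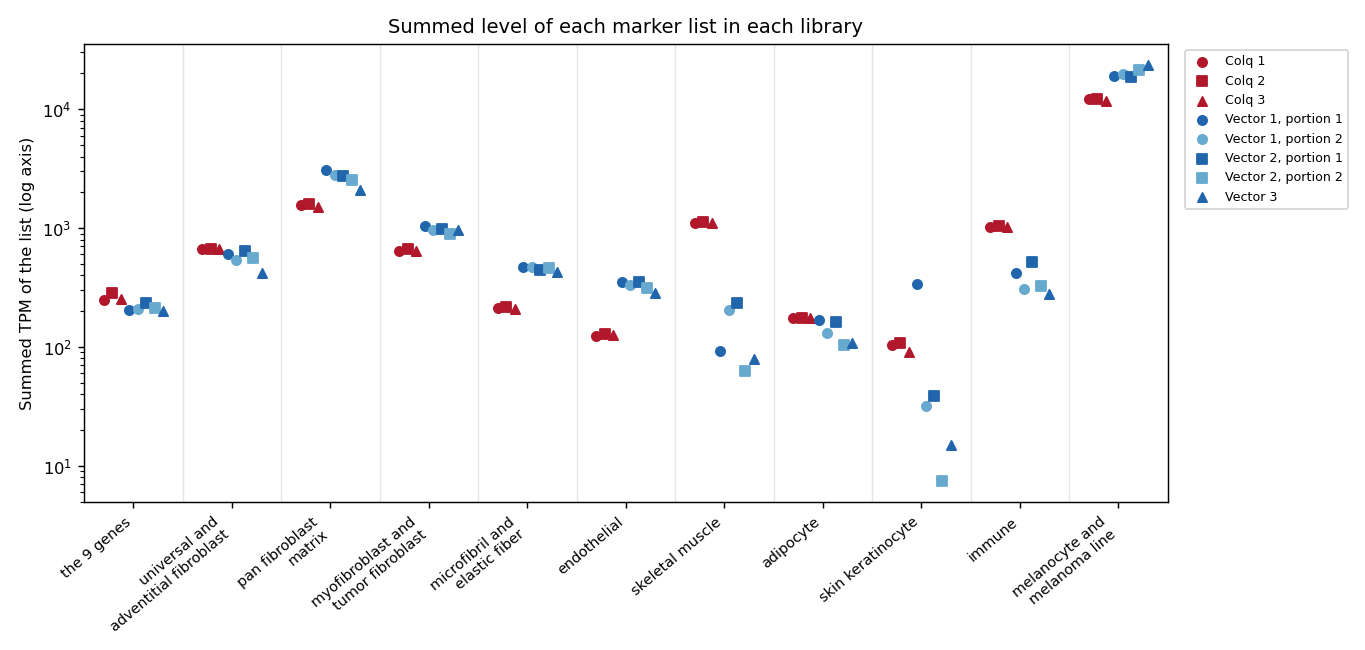
Summed TPM (log axis) of the 9 genes and of each marker list in each of the 8 libraries; red, Colq; blue, vector, with second portions in light blue. The skeletal muscle sum is 1106 to 1127 TPM in Colq and 63.0 to 236.0 TPM in vector libraries, while the pan-fibroblast, myofibroblast, elastic fiber and endothelial sums are lower in every Colq library.

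The genes most like Dpt over the 6 tumors, by the root mean square difference of log2(TPM + 1) after each gene was centered on its own mean, were Myl1 (0.17), Ckm (0.29), Pvalb (0.29), Ccl6 (0.34) and Atp2a1 (0.36). Clec3b was the eighth nearest to Dpt at 0.38, Pi16 was at rank 40 and Mfap5 at rank 190. The genes most like Clec3b were Tnnc2 (0.16), Lyz1 (0.18), Tnnt3 (0.19), Tnni2 (0.19) and Cox8b (0.19), with Dpt at rank 12 and Pi16 at rank 28. Myl1, a fast-fiber myosin light chain, was at 99.3 ± 4.56 against 6.84 ± 1.90 TPM, and Tnnc2, the fast troponin C, at 136.1 ± 7.98 against 9.46 ± 5.10 TPM (SD, n = 3 each). This measure takes in the gap between the groups as well as the spread within them, and it describes only these 6 tumors. Fbln1 lay farthest from Dpt of the 9 genes, at 2.56.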

How the data were processed

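The data are bulk RNA-seq libraries of subcutaneous tumors. Total RNA was extracted with TRIzol, and poly-A libraries were non-directional, per the labels' protocols, so reads of overlapping antisense genes could not be separated. The expression values deposited by the authors are log2(TPM + 1), per the values themselves, and RSEM and mm39 are named per the submitters' processing notes. Aligner, versions and annotation: not given in the sources used here. The authors' deposited comparison holds a mean normalized signal, a log2 fold change with its SE, a Wald score and p-values per gene, per the file headers, and comes from DESeq2, per the submitters' processing notes. Which libraries entered it is unknown here.

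Sample titles gave the groups and tumor numbers. Portions of a tumor were averaged on the log2 scale for the fit and as TPM for levels and sums. The filter kept genes whose mean over 6 tumors reached 1 TPM, and limma 3.58.1 (R 4.3.3; a linear model with trended empirical Bayes variance, Benjamini-Hochberg adjustment over 13726 genes, threshold 0.05) tested Colq minus vector. This fit was tested on simulated data. Summed TPM of a list was compared on the log2 scale with an exact permutation test, two-sided, of the tumor labels. Tables and figures were made with Python 3.11.15, pandas 2.3.3, numpy 2.4.6 and matplotlib 3.10.9. The 9 genes and the other lists were chosen with earlier results of these data known. Genes named from a list are the 4 of smallest p, or markers fixed for the cell type, with exceptions said in the text; the 5 genes most like Dpt and Clec3b were found by the root mean square difference of centered log2 values, numbered gene models passed over. Alternatives were pseudocounts of 0.1 and 0.5, no filter, a mean TPM of at least 5, median-of-ratios size factors on TPM, quantile normalization, first or second portions alone, portions averaged as TPM, a replicate block and leaving out each tumor. After the data were seen, 2 were added: subtraction of a loess trend (span 0.5) fitted to transcript length and GC content (13211 genes, 96.2%, with a value in GENCODE on GRCm38), and the Colq libraries averaged as 1 sample. TPM holds no read depth, and the spread between tumors sets the precision. Some results are not reported here.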

Additional observations from a re-analysis of the deposited data

How the results depend on the processing

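As deposited, 1556 genes were higher and 8181 lower in Colq tumors. After size factors 3742 were higher and 3675 lower, with quantile normalization 3189 and 4160, with length and GC corrected 2467 and 3574, and with the Colq libraries as 1 sample 788 were higher. The first 3 of these recenter the median of all genes from -0.50 to -0.01, -0.08 and -0.07; the last has fewer samples. The share of calls that were higher was 16.0% as deposited, 50.5% after size factors, 43.4% with quantile normalization and 40.8% with the length trend removed. Of the 9 genes 6 were called higher and 1 lower; with the Colq libraries as 1 sample 3 were called higher. Leaving out each tumor in turn left 6 higher and 1 lower each time. Over all alternatives the log2 fold change of Dpt ran from 3.59 to 4.39, of Clec3b from 3.51 to 4.96, of Pi16 from 2.37 to 3.39, of Pdgfra from 0.05 to 1.08 and of Fbln1 from -1.27 to -0.56, and none of the 9 changed sign. Among the named genes called on either scale, signs turned for Pdgfa (0.025 after size factors, 0.080 with quantile normalization), Anxa2 (0.19 after size factors), Plgrkt (0.30 and 0.16), Dkk3 (0.070 and 0.091, and 0.067 with the length trend removed), Rgs5 (0.026 with quantile normalization), Mbp (0.072), Fbn1 (0.39) and Col14a1 (0.85, not called as deposited), the last 3 with the length trend removed. The cause of these turns was not tested. With the replicate block 1526 genes were higher and 7928 lower, and no named gene changed its call. The numbers are not a pairing in the labels, and same-numbered tumors correlated at only 0.030, 0.0070 and 0.044. By this measure 5 of 6 tumors correlated best with the tumor of their own number in the other group. Values were centered within each group of 3 tumors, so these matches are not independent, and no chance rate was computed. Whether the numbers mark pairs was not tested.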

Other observations

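Dermal fibroblast genes were read in the same fit. Of 7 tested, 4 rose and 2 fell, where 11.3% of all tested genes were higher and 59.6% lower, and the median was 0.80 on the log2 scale. Counting the Colq libraries as 1 sample left 2 higher and 2 lower. Sfrp4, a secreted Wnt antagonist, was at 8.23 ± 1.23 against 1.34 ± 0.37 TPM, Twist1, a mesenchymal transcription factor, at 3.20 ± 0.18 against 0.875 ± 0.069, and Mest at 10.2 ± 0.17 against 26.4 ± 5.44 (SD, n = 3 each). Dkk3 fell by 0.47 as deposited and was not called after size factors.

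Pericyte and smooth muscle genes, which like adventitial fibroblasts lie around vessels, gave 1 rise and 5 falls of 10 tested (59.6% of all tested genes were lower), with a median of -0.34. The rise was lost without Colq tumor 1, 2 or 3, without vector tumor 2, and with the Colq libraries as 1 sample, where 4 fell. After size factors 2 rose and 3 fell, with a median of 0.09, where 27.3% of all tested genes were higher and 26.8% lower. Notch3 fell by 1.24, Cspg4 by 0.97, Abcc9 by 0.95 and Rgs5 by 0.55, and none of these 4 was called with the length trend removed. Of 5 tested mesothelial and nerve sheath genes 1 rose and 2 fell, with a median of -0.06, where 11.3% of all tested genes were higher and 59.6% lower. The nerve sheath genes Mbp and Cdh19 fell by 0.65 and 0.77, and neither was called after size factors, where 2 of the list rose and 0 fell.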
